A study of Rattus norvegicus with 91 samples.

Results

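Markers of Kupffer cells and other macrophages, the 7 genes Clec4f, Cd68, Fcer1g, Cd163, C1qa, C1qb and Csf1r, were followed in the livers of rats labelled as given methylprednisolone. A member was any probe set, the group of short probes that reads 1 transcript, whose single annotated gene symbol was 1 of these 7. The rule matched gene names, but the genes themselves were proposed with earlier results of these data in view, which limits what their counts beside the background can show. It found 6 of the 7 genes, among the 10620 gene symbols that single probe sets carried, through 10 of the 24722 probe sets of both array designs, and 9 of the 10 were bright enough to be tested. No probe set carried Cd163, the haemoglobin and haptoglobin scavenger receptor, as its single symbol, so that gene has no value here.

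All samples were total RNA from the liver of Wistar rats, hybridised to Affymetrix arrays in 2 time courses that used different designs. The short course held 3 arrays at each of 0.25, 0.5, 0.75, 1, 4, 5.5, 6, 7, 8, 18 and 48 h, 2 arrays at each of 2, 5, 12, 30 and 72 h, and 4 control arrays, which makes 47 arrays. The long course held 4 arrays at each of 6, 10, 13, 18, 24, 36, 48, 72, 96 and 168 h and 4 control arrays, which makes 44 arrays. Every label, those of the controls included, names a methylprednisolone dose of 50 mg/kg, and none gives a route, a dosing schedule, a vehicle, an age, a sex or a time of day. The labels do not say whether arrays of a group came from separate animals, so the p-values measure the spread between arrays, which may be technical. Signals are given in the authors' intensity units, and the courses were scaled apart, so no level is set against one of the other course or of another probe set.

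Kupffer cells are the resident macrophages of the liver sinusoids, where they take up particles, immune complexes and worn-out red cells from the blood. Clec4f, a C-type lectin once named the Kupffer cell receptor, is largely restricted to them in rodents, while Cd68, Fcer1g, the C1q chains and Csf1r are made by macrophages more widely and in part by other myeloid cells. Glucocorticoids act on macrophages through the glucocorticoid receptor and lower many of their inflammatory products. In whole-liver RNA, fewer macrophages and less RNA per macrophage cannot be told apart.

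Promoter sequences are shown for 4 members, to set the gene whose signal fell furthest in the long course beside one that fell less and beside the pair of C1q genes. They are the 250 bases before the annotated start, 5′ to 3′ on the gene's strand, from RefSeq's annotation of the rat build GRCr8. A promoter was found for 6 of the 7 genes; Fcer1g is named only. Capitals mark matches on either strand to GAGGAA, the core of sites for the macrophage factor PU.1, to TGTTCT, the hexamer of glucocorticoid response elements, and to TGANTCA, a pattern of AP-1 sites.
Clec4f (chr4:117696408-117696657, minus strand): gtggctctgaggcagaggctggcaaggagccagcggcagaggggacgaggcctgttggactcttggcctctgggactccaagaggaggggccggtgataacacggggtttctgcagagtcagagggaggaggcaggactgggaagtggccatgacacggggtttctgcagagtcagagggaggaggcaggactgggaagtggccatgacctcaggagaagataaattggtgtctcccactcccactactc
Cd68 (chr10:54882442-54882691, minus strand): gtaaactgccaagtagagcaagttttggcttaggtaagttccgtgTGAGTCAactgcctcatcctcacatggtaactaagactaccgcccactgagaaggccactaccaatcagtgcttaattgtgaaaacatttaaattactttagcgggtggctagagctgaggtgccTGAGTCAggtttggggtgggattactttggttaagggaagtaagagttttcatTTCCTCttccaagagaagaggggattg
C1qa (chr5:154419934-154420183, minus strand): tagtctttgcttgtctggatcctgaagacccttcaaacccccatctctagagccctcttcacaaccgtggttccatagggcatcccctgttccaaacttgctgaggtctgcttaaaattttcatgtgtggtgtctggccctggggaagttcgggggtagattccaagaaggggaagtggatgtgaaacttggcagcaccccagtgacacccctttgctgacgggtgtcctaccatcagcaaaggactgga
C1qb (chr5:154407828-154408077, minus strand): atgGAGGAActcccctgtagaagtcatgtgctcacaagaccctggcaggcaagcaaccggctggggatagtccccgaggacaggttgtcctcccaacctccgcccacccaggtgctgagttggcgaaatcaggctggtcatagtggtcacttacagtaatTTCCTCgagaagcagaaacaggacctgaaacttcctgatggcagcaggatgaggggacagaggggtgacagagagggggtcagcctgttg
The Cd68 window held TGANTCA from 205 to 199 and from 80 to 74 bases before the start, and GAGGAA on the opposite strand from 27 to 22 bases before it. The C1qb window held GAGGAA from 247 to 242 bases before the start, and on the opposite strand from 90 to 85. The Csf1r window, not printed, held GAGGAA on the opposite strand from 229 to 224 and from 95 to 90 bases before the start. The windows of Clec4f and C1qa held none of the 3 patterns, and TGTTCT was in none of the 6 windows. Of 33469 promoters of the same length, 23.3% held GAGGAA, 17.5% held TGTTCT and 6.3% held TGANTCA. In the Clec4f window a stretch of 54 bases stood in tandem, its copies starting 151 and 97 bases before the start. The C1qa and C1qb genes lie on chromosome 5 with C1qc between them, and Clec4f lies beside Cd207, another C-type lectin gene, on chromosome 4.

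Some arrays stood apart, and they bear on the results below. One array of the short course, 6 h replicate 3, had been deposited on another scale, with a trimmed mean of 150.2 against 801 on the others, and was brought to theirs. In the short course 9 arrays, and in the long course 96 h replicate 3, had a mean correlation under 0.9 with the rest of their course. In the long course 15 arrays had a high signal of the spiked-in bacterial control transcripts and 29 a low one. The high ones were 4 of 16 arrays at 6-18 h, 4 of 12 at 24-48 h, 6 of 12 at 72-168 h and 1 of 4 controls. The log2 ratio of 3′ to 5′ Gapdh signal, a sign of RNA integrity, had a median of 0.154 at 6-18 h, 0.260 at 24-48 h and 0.342 at 72-168 h of the long course, against 0.0833 in controls. The title of 96 h replicate 1 of the long course was used over its description, which names another time, and 48 h replicate 1 of that course, whose label carries the wording of the short course, was likewise kept by its title. Hepatocyte genes marked the tissue as liver: all 11 hepatocyte markers on each design were above the brightness filter and none was listed at 0. The lowest single signal among them was 0.152, close to 0, in the short course and 2383 in the long one.

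In the long course all measured members were lower than the controls on average in the 24-48 h window, and 5 of the 6 passed the test there. Clec4f, Cd68 and Fcer1g were called lower in every window, C1qa and C1qb at 24-48 h only, and Csf1r in none. The C1qa and C1qb changes in the other windows, from -0.41 to -0.35, were negative too but did not pass. Their differences between 72-168 h and 6-18 h were 0.03 and 0.05 and did not pass, so a fall confined to 24-48 h is not shown. Clec4f fell furthest, to 38.4% of the control level at 72-168 h. Percentages of control, here and below, are on the scale of signal plus 32 and not of the signal itself. A change is the log2 of the signal plus 32 in treated arrays minus that in controls, tested in 1 limma fit per course with p-values adjusted by Benjamini and Hochberg over all probe sets tested and called under 0.05. All comparisons of a course share its 4 control arrays.

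Over all times, all 6 long-course members passed limma's moderated F test, against 23.8% of the 11106 probe sets tested. The adjusted p was 3.06e-07 for Clec4f, 0.000709 for Fcer1g, 0.00648 for Cd68, 0.0183 for C1qb, 0.0198 for Csf1r and 0.0391 for C1qa. Without 168 h replicate 3 only Clec4f, Cd68 and Fcer1g passed, C1qa and C1qb were also lost without 168 h replicate 2 (adjusted p = 0.0817 and 0.0543), and C1qa was lost in 14 of the 44 fits that left out 1 array. With all 168 h arrays left out the count was 4, C1qa and C1qb being lost (adjusted p = 0.0965 and 0.0712). Lower calls were made for 3 of 6 members at 6-18 h, 5 of 6 at 24-48 h and 3 of 6 at 72-168 h. Among all probe sets tested, 4.67%, 2.62% and 6.01% were called lower in these windows, so the members' shares lay above the background in each. The members' median change was -0.47, -0.76 and -0.55, beside -0.03, -0.04 and -0.03 over all probe sets tested. No member was called higher at any time of the long course.

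By single times, 0 of 6 members were called lower at 6 h, when 1.8% of all probe sets were. The count was 2 at 10 h (background 3.48%) and 2 at 13 h (2.22%), both times Clec4f and Cd68. It was 3 at 18 h (2.47%) and 3 at 24 h (0.693%), 5 at 36 h (2.67%) and 3 at 48 h (1.75%), with Fcer1g as the third. It was 3 at 72 h (2.94%), again 3 at 96 h (4.54%), and 1 at 168 h (4.03%), which was Clec4f. The members' share exceeded the background at every time but 6 h.

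Clec4f encodes a lectin that binds galactose- and fucose-ending sugars. In the long course its signal was 512, 491, 423 and 591 at 6 h, 361, 428, 382 and 367 at 10 h, 267, 419, 319 and 405 at 13 h and 274, 198, 333 and 419 at 18 h, against 674, 522, 658 and 658 on the control arrays. One of these 16 arrays, at 6 h, reached the control range and the other 15 lay below every control. It was 331, 270.2, 265 and 314 at 24 h, 248, 272, 292 and 243 at 36 h and 274, 323, 175 and 330.2 at 48 h. It was 264, 206, 143 and 273 at 72 h, 192, 192, 240.2 and 197 at 96 h and 192, 229, 341 and 225 at 168 h. All 24 arrays from 24 h on lay below the lowest control, with no overlap. Every array of the window lay under all controls for 0.819% of all probe sets at 24-48 h and for 1.35% at 72-168 h.

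The Clec4f change was -0.69 ± 0.14 at 6-18 h (SE; adjusted p = 0.00142), -1.10 ± 0.15 at 24-48 h (adjusted p = 3.19e-06) and -1.38 ± 0.15 at 72-168 h (adjusted p = 1.17e-08). These stand for 62.0%, 46.7% and 38.4% of the control level on the scale of signal plus 32. In time order the mean signal was 628 ± 71.0 in controls, 504 ± 69.0 at 6 h, 385 ± 30.2 at 10 h and then 353 ± 72.4 at 13 h (SD, n = 4 each). It was 306 ± 93.4 at 18 h, 295 ± 32.6 at 24 h, next 264 ± 22.6 at 36 h and 276 ± 71.5 at 48 h. At the last times it was 221 ± 60.3 at 72 h, 205 ± 23.2 at 96 h and lastly 247 ± 65.0 at 168 h. Ordered by level, only the steps between controls and 6 h and between 6 and 10 h were wider than the larger SD of the neighbouring groups on the log2 scale. Clec4f did not pass at 6 h (-0.30 ± 0.18, adjusted p = 0.427) and passed at each of the other 9 times. The change was -0.66 ± 0.18 at 10 h (adjusted p = 0.0187) and -1.47 ± 0.18, or 36.0% of control, at 96 h (adjusted p = 4.85e-07). The 10 h call was lost without 10 h replicate 1, control replicate 1 or control replicate 4 (adjusted p of 0.0506 to 0.0543), and the 13 h call without 13 h replicate 1 (adjusted p = 0.0525). Tested directly, Clec4f was lower at 72-168 h than at 6-18 h by 0.69 on the log2 scale (difference -0.69 ± 0.10, adjusted p = 1.8e-06, below the 6-18 h mean on 12 of 12 arrays). In that comparison 12.1% of all probe sets were called lower. With the spike-in class as a block the changes in the 3 windows were -0.69, -1.11 and -1.42, and on the low arrays alone -0.73, -1.03 and -1.51. Of the 168 h arrays only replicate 1 was low. The low-array values at 72-168 h, here and for Cd68 and Fcer1g below, therefore rest on 1 array for that time.

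**Figure D1:**
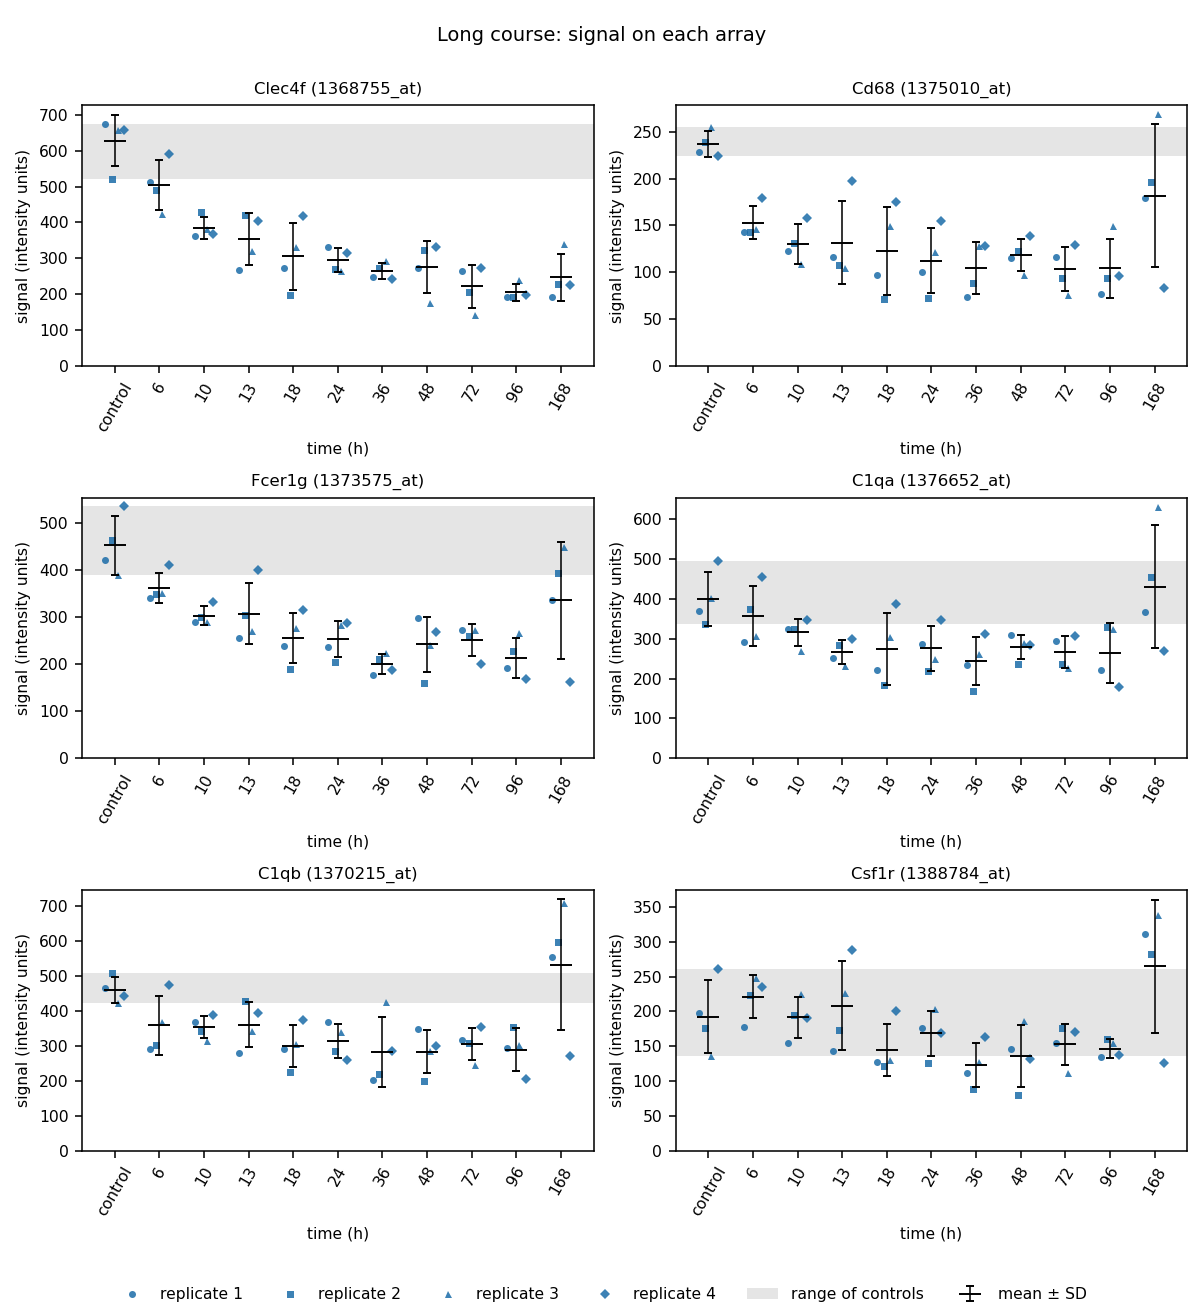
Signal (authors' intensity units, vertical axis from 0) of 6 marker genes on every array of the long course, by time (h), with controls at the left. Points are arrays, bars show the mean ± SD of 4 arrays and the grey band is the range of the controls. Clec4f lies below the band on all arrays from 10 h on, whereas at 168 h Cd68, Fcer1g, C1qa, C1qb and Csf1r span values from below to within or above it.

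Cd68 encodes macrosialin, a heavily glycosylated protein of macrophage lysosomes and endosomes. Its long-course signal ranged from 71.7 to 198 with a median of 137 at 6-18 h, from 72.1 to 155 with a median of 118 at 24-48 h and from 75.5 to 268 with a median of 106 at 72-168 h, against 228, 239.5, 255 and 224 in controls. All arrays of the windows at 6-18 h and 24-48 h lay below every control, which 0.855% and 0.819% of all probe sets did, and 1 array at 168 h lay above them all. Cd68 fell by 0.72 at 6-18 h (-0.72 ± 0.17, adjusted p = 0.00546), by 0.92 at 24-48 h (-0.92 ± 0.18, adjusted p = 0.000806) and by 0.81 at 72-168 h (-0.81 ± 0.18, adjusted p = 0.00163). At 96 h the signal was 77.3, 93.6, 149 and 96.4, every array under the controls, as for 5.31% of all probe sets, and the change was -1.01 ± 0.22, or 49.8% of control (adjusted p = 0.00215). At 168 h it was 179, 196, 268 and 82.8, which overlaps the controls, and the change of -0.41 ± 0.22 did not pass (adjusted p = 0.295). Cd68 was called lower at each time from 10 to 96 h, but several of these calls rested on single arrays. Those at 10 and 13 h were lost without any 1 of replicates 1 to 3 of that time or of control replicates 1, 3 and 4, that at 13 h also without control replicate 2 (adjusted p of 0.0533 to 0.0965 at 10 h and 0.0539 to 0.123 at 13 h). The 18 h call was lost without replicate 1 or 2 or control replicate 3, the 24 h call without replicate 1 or 2 and the 48 h call without replicate 3 or control replicate 2 (adjusted p up to 0.122, 0.125 and 0.0759). With the spike-in block its window changes were -0.72, -0.95 and -0.88, and on the low arrays alone -0.86, -1.01 and -0.90.

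Fcer1g encodes the signalling gamma chain shared by activating Fc receptors. Its signal ranged from 189.5 to 409.8 with a median of 302 at 6-18 h, from 161 to 297 with a median of 231 at 24-48 h and from 163 to 448 with a median of 263 at 72-168 h, against 422, 464, 390.2 and 535 in controls. No array at 24-48 h reached the controls, whereas 2 arrays at 6-18 h and 2 at 72-168 h did. Fcer1g fell at 6-18 h (-0.53 ± 0.15, adjusted p = 0.0188), at 24-48 h (-0.89 ± 0.15, adjusted p = 0.000167) and at 72-168 h (-0.74 ± 0.15, adjusted p = 0.000766). It was lowest at 36 h, with 178, 212, 224 and 188, all under the controls, as for 5.58% of all probe sets, and a change of -1.06 ± 0.19, or 48.0% of control (adjusted p = 0.000313). At 168 h it read 337, 394, 448 and 163 and did not pass (-0.47 ± 0.19, adjusted p = 0.134). The call at 6-18 h was lost without control replicate 4 (-0.45, adjusted p = 0.107), the 18 h call without 18 h replicate 2 (adjusted p = 0.0801) and the 24 h call without 24 h replicate 1 or 2 or control replicate 4 (adjusted p of 0.0701 to 0.125). With the spike-in block the window changes were -0.53, -0.90 and -0.78, and on the low arrays alone -0.53, -0.85 and -0.61.

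C1qa and C1qb encode the A and B chains of C1q, the recognition protein of the classical complement pathway, which macrophages secrete. C1qa read 287, 218, 249 and 347 at 24 h, 234, 168, 261 and 312 at 36 h and 308, 236, 289.7 and 283 at 48 h, against 369, 337, 401 and 494 in controls. C1qb read 367, 286, 339 and 259.9 at 24 h, 202, 219.6, 423 and 284 at 36 h and 348, 199.5, 285 and 299 at 48 h, against 465, 507, 421 and 443 in controls. All 12 arrays of the 24-48 h window were below the control mean for both genes, and 1 array of each gene lay within the control range. Both fell at 24-48 h, C1qa by 0.54 (-0.54 ± 0.17, adjusted p = 0.0444) and C1qb by 0.62 (-0.62 ± 0.17, adjusted p = 0.0203). By single times in this fit they passed at 36 h alone, C1qa with -0.66 ± 0.20 (adjusted p = 0.0462) and C1qb with -0.69 ± 0.21 (adjusted p = 0.0424). At 36 h 5 of 6 members were called lower, against 2.67% of all probe sets. The 36 h calls of C1qa and C1qb were lost with no brightness filter (adjusted p = 0.0606 and 0.0561), under quantile normalization (0.0788 and 0.0536) and under median centring (0.0789 and 0.0845), which left 3 of 6. With the spike-in class as a block both genes were also called lower at 96 h, C1qa with -0.64 (adjusted p = 0.0210) and C1qb with -0.65 (adjusted p = 0.0441). The blocked changes at 24-48 h were -0.56 for C1qa and -0.63 for C1qb, and those on the low arrays alone -0.53 and -0.64.

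Neither C1q gene passed at 6-18 h or 72-168 h. The C1qa change was -0.38 ± 0.16 (adjusted p = 0.139) and -0.35 ± 0.17 (adjusted p = 0.186), and the C1qb change -0.41 ± 0.17 (adjusted p = 0.123) and -0.35 ± 0.17 (adjusted p = 0.203). The C1q calls rest on few arrays: at 24-48 h C1qb was lost without control replicate 1 or 2 (adjusted p = 0.0613 and 0.0951). C1qa was lost there without any 1 of the controls, the highest adjusted p being 0.185 without replicate 4, and under quantile normalization, median centring and no brightness filter, and without 8 single arrays of the window. The 36 h call was lost without any 1 control for both genes, the highest adjusted p being 0.149 for C1qa and 0.114 for C1qb. It was also lost without 36 h replicate 1, 2 or 3 for C1qa (adjusted p up to 0.211). For C1qb it was lost without 36 h replicate 1, 2 or 4 (adjusted p up to 0.170). The C1qa call at 36 h was lost without some single arrays of other times as well.

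Csf1r encodes the receptor for colony-stimulating factor 1 and interleukin 34, on which macrophage survival depends. Its long-course signal ranged from 121 to 288 with a median of 193 at 6-18 h, from 80.0 to 204 with a median of 138 at 24-48 h and from 111 to 339 with a median of 158 at 72-168 h, against 197, 176, 136 and 261 in controls. The groups overlapped in every window. The change was -0.01 ± 0.17 at 6-18 h (adjusted p = 0.982), -0.37 ± 0.18 at 24-48 h (adjusted p = 0.27) and -0.07 ± 0.18 at 72-168 h (adjusted p = 0.873). The 95% intervals ran from -0.36 to 0.34, from -0.73 to -0.01 and from -0.43 to 0.29. The Clec4f change of the same window lay outside each, and changes between the bounds were not excluded. The 24-48 h interval, which carries no adjustment for multiple testing, lay wholly on the side of a fall. No single time passed against the controls. The F test, which Csf1r passed, lost it under quantile normalization (adjusted p = 0.0502) and without 168 h replicate 3 (adjusted p = 0.0504).

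**Figure D2:**
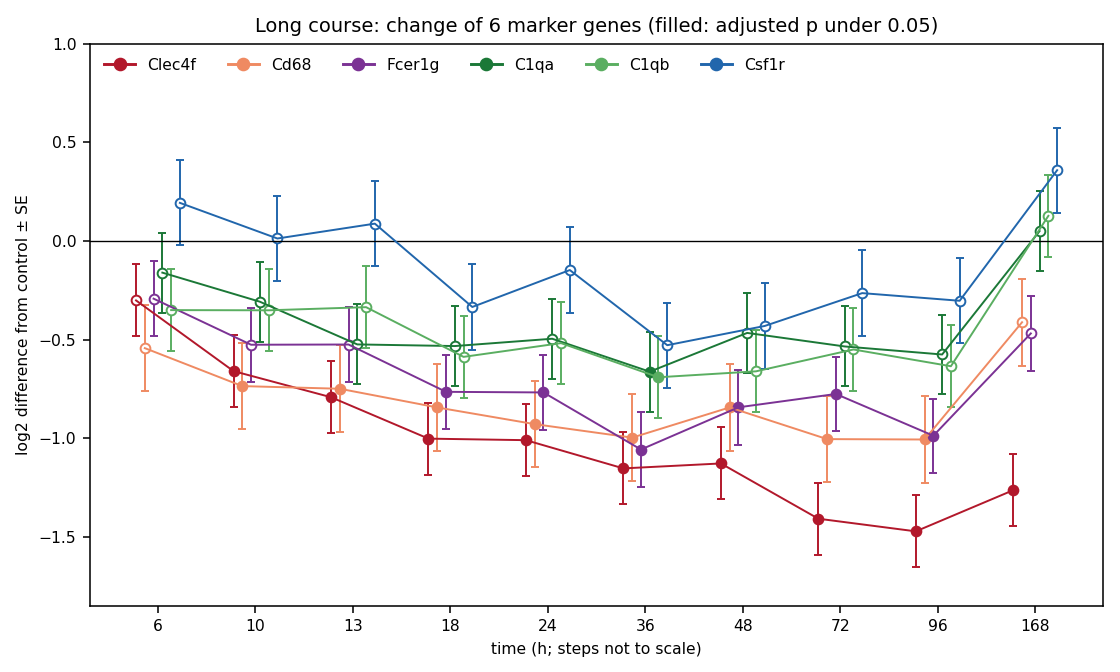
Change of 6 marker genes at each time of the long course, as log2 of signal plus 32 minus the control mean, with its SE (time in h, steps not to scale). Filled points had an adjusted p under 0.05. Clec4f moves down to -1.47 at 96 h and stays at -1.26 at 168 h, where the other 5 genes lie between -0.47 and 0.36.

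The 168 h arrays differed among themselves. Replicate 4 read lower than the other 3 for Cd68, Fcer1g, C1qa, C1qb and Csf1r, but not for Clec4f. C1qb read 554, 597, 706 and 269.9 at 168 h, in replicate order, against 465, 507, 421 and 443 in controls. Replicates 1 to 3 were above every control and replicate 4 below them all. Csf1r read 311, 283, 339 and 126, against 197, 176, 136 and 261 in controls, with the same split. C1qa read 366, 455, 630.1 and 269, against 369, 337, 401 and 494 in controls, with 1 array above them all, 1 below and the rest among them. Clec4f, at 192, 229, 341 and 225, was below every control on all 4 arrays, as 4.72% of all probe sets were. It was called lower at 168 h (-1.26 ± 0.18, adjusted p = 6.78e-06), where 4.03% of all probe sets were and none of the other 5 members was.

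Some of the other genes looked at split the 168 h arrays in the same way, and others did not. The share of all probe sets with this split was not counted. Lcn2, a neutrophil granule and acute-phase protein, read 2739.6, 12598, 14052 and 112 at 168 h, against 268, 818, 89.4 and 157 in controls. The summed signal of the 7 neutrophil markers on the design was 2921, 13252, 14826 and 237 at 168 h, against 405, 1186, 216 and 401 in controls. Hmox1, which breaks down haem, read 547, 1097, 564 and 113 at 168 h, against 100.4, 268, 139 and 167 in controls. Replicates 1 to 3 were above all controls for Lcn2, the neutrophil sum and Hmox1, and replicate 4 was not. Most of the neutrophil sum on replicates 1 to 3 was Lcn2 signal, so it is not a separate reading. S100a9, another neutrophil marker, read 92.1, 372, 478 and 8.87 at 168 h, against 34.4, 187, 9.26 and 62.2 in controls. Its replicates 2 and 3 were above all controls and its replicate 1 was not. C1qc read 340, 416, 471 and 178, against 316, 342, 237 and 389 in controls, with replicate 1 among the controls. C9 read 4582, 8144, 10336 and 4608, against 8529, 9338, 7199 and 8831 in controls, and only its replicate 3 was above them all. The part of these genes in the values of the members was not tested. Replicates 2, 3 and 4 at 168 h were arrays of high spike-in signal and replicate 1 was not.

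A comparison of 168 h with 72 h was added after these values were seen. In it no member passed, with 0.342% of all probe sets called higher, and the differences were 0.14 ± 0.18 for Clec4f (adjusted p = 0.851), 0.59 ± 0.22 for Cd68 (adjusted p = 0.248), 0.31 ± 0.19 for Fcer1g (adjusted p = 0.599), 0.59 ± 0.20 for C1qa (adjusted p = 0.211), 0.68 ± 0.21 for C1qb (adjusted p = 0.132) and 0.62 ± 0.22 for Csf1r (adjusted p = 0.211). Without 168 h replicate 4 it called Cd68 (0.86, adjusted p = 0.0187), C1qa (0.77, adjusted p = 0.0385), C1qb (0.95, adjusted p = 0.00378) and Csf1r (0.90, adjusted p = 0.00939) higher, with 1.2% of all probe sets, whereas Fcer1g (0.59, adjusted p = 0.0574) and Clec4f did not pass. Replicate 4 had read lowest for Cd68, Fcer1g, C1qa, C1qb and Csf1r, so leaving it out could only raise their differences. These calls, and their number beside the background, are therefore no test of a rise. With all 168 h arrays left out, the last window held 72 and 96 h only and 5 of 6 members were called lower, against 6.02% of all probe sets. C1qa then fell by 0.55 (adjusted p = 0.0211) and C1qb by 0.59 (adjusted p = 0.0113).

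**Figure D3:**
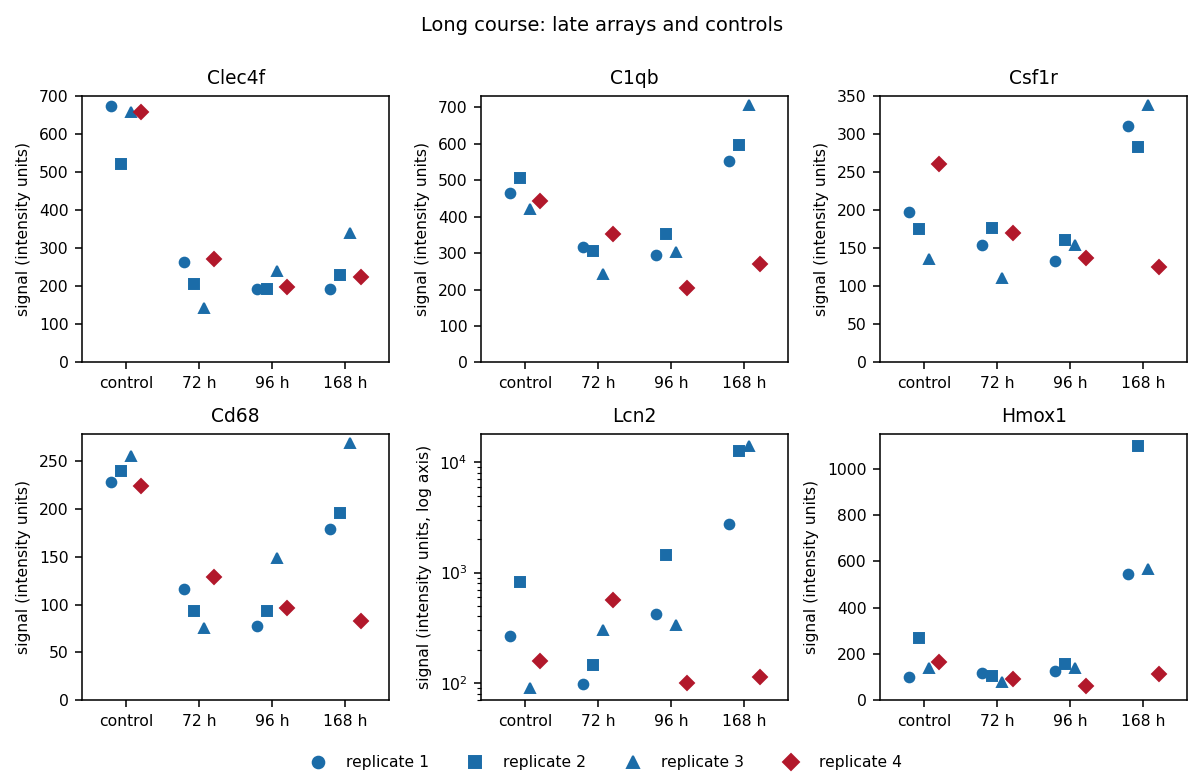
Signal (authors' intensity units) on each array of the controls and of 72, 96 and 168 h of the long course for 4 members and for Lcn2 and Hmox1; the Lcn2 axis is logarithmic and the others start at 0. At 168 h replicate 4 (diamonds) is the lowest of the 4 arrays for every gene shown except Clec4f.

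In the short course Clec4f fell at 4-8 h, to 38.2% of the control level, and read within or above the control range at 48 and 72 h, while C1qb passed in no window against the controls. The Clec4f signal was 579, 595 and 1152 at 0.25 h, 701, 1226 and 415 at 0.5 h, 1704, 1150.2 and 1855 at 0.75 h, 1921, 951 and 882 at 1 h and 555 and 825 at 2 h, against 1473, 1603, 1885 and 2223 in controls. Every array at 0.25, 0.5 and 2 h lay below all controls, whereas at 0.75 and 1 h some lay within the control range. The share of all probe sets with such an order is not given for the times before 4 h, so nothing is read from it. None of these times passed when tested singly. From 4 to 8 h it was 895, 1212 and 418 at 4 h, 1398 and 271 at 5 h, 1385, 755 and 823 at 5.5 h, 275, 759 and 639.5 at 6 h, 689.6, 1357 and 320.0 at 7 h and 532, 620.0 and 396 at 8 h. Later it was 656 and 848 at 12 h, 1154, 2117 and 1343 at 18 h, 1237 and 2074 at 30 h, 2979, 1751 and 2457 at 48 h and 3056 and 2127 at 72 h. All 17 arrays of the 4-8 h window lay below every control, which 2.09% of all probe sets did, whereas at 48 and 72 h 3 of 5 arrays lay above them all. Both arrays at 12 h lay below every control as well, again with no share of all probe sets beside it, and that time did not pass either.

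The Clec4f change at 4-8 h was -1.39 ± 0.33 (adjusted p = 0.00207), and 1 of the 3 tested members was called lower there, against 10.5% of the 6118 probe sets tested. A count of 1 among so few members says little beside that share. By single times Clec4f passed at 6 h (-1.72 ± 0.45, adjusted p = 0.0124) and at 8 h (-1.74 ± 0.45, adjusted p = 0.0115), where 4.09% and 4.95% of all probe sets were called lower. The changes in the other windows were -0.90 ± 0.36 at 0.25-0.75 h (adjusted p = 0.128), -0.97 ± 0.40 at 1-2 h (adjusted p = 0.106), -0.73 ± 0.40 at 12-18 h (adjusted p = 0.455) and 0.26 ± 0.37 at 30-72 h (95% interval -0.50 to 1.01). Tested directly, Clec4f was higher at 30-72 h than at 4-8 h by 1.64 ± 0.27 (adjusted p = 1.29e-05, above the 4-8 h mean on 7 of 7 arrays). In that comparison 15.2% of all probe sets were called higher. Without the 9 arrays of low correlation the 4-8 h change was -1.11 and did not pass (adjusted p = 0.0592), whereas the difference between 30-72 h and 4-8 h was 1.36 and passed. The calls at 6 h and 8 h were each lost without 1 array, 6 h replicate 1 (-1.31, adjusted p = 0.151) and 8 h replicate 3 (-1.57, adjusted p = 0.0754). Clec4f passed at 7 h without 7 h replicate 2 (-1.84, adjusted p = 0.0201), but not with it (adjusted p = 0.0557).

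**Figure D4:**
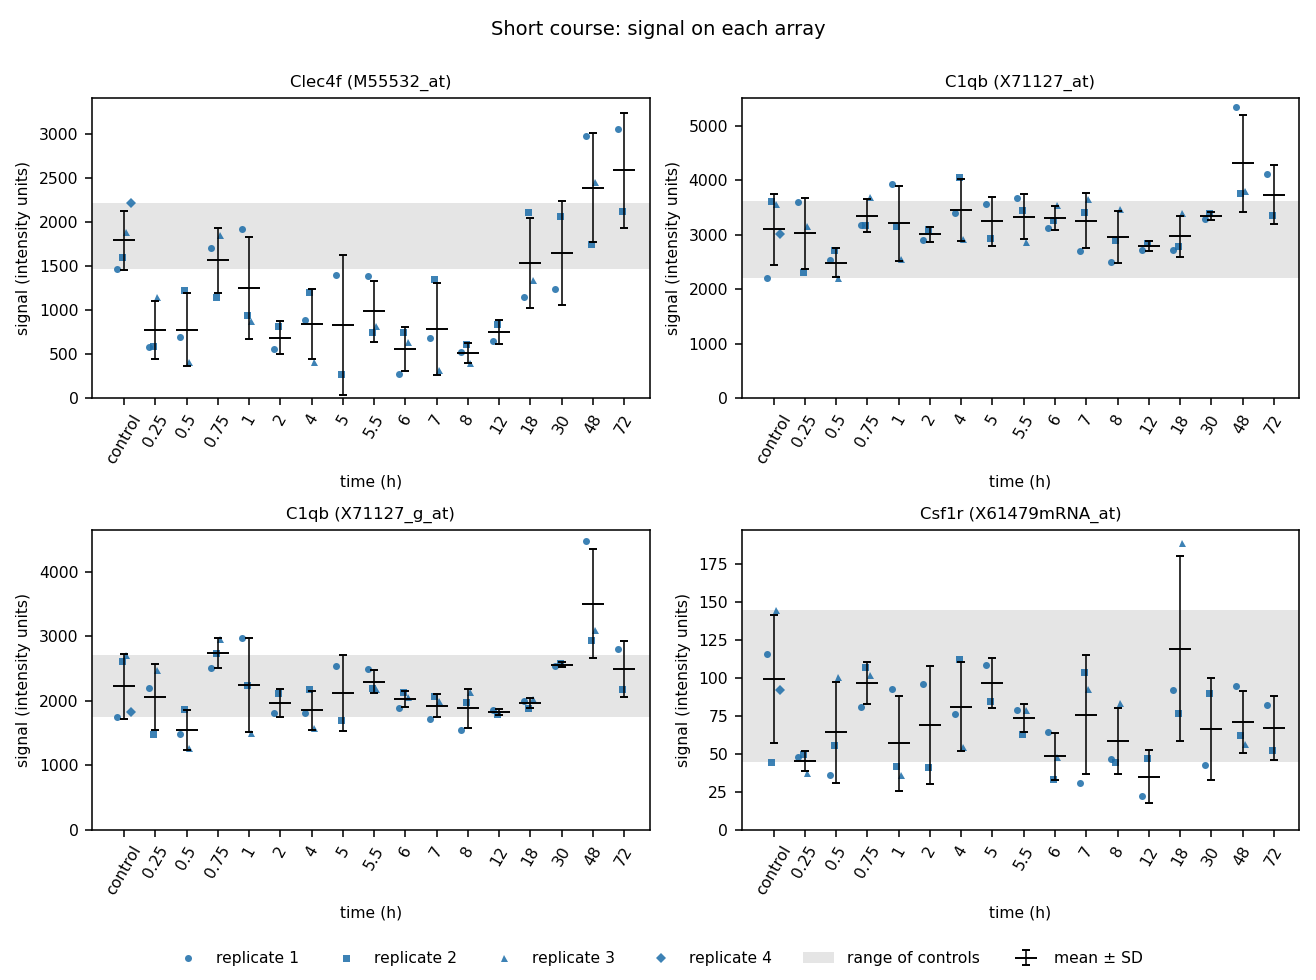
Signal (authors' intensity units, vertical axis from 0) of the 4 member probe sets on every array of the short course, by time (h), with controls at the left. Points are arrays, bars show the mean ± SD of 2 to 4 arrays and the grey band is the range of the controls. Clec4f lies below the band on all arrays from 4 to 8 h, whereas both C1qb probe sets have all 3 arrays above it at 48 h.

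C1qb was read by 2 probe sets in the short course, X71127_at and X71127_g_at, which draw on the same transcript. At 48 h X71127_at read 5346, 3773 and 3809, against 2209.7, 3617, 3558 and 3011 in controls. X71127_g_at read 4480.5, 2946 and 3087 at 48 h, against 1752, 2616, 2705 and 1822 in controls. All 3 arrays at 48 h lay above the controls on both probe sets, as for 4.45% of all probe sets, but the changes of 0.48 ± 0.18 and 0.65 ± 0.20 did not pass (adjusted p = 0.516 and 0.305). At 4-8 h the changes were 0.09 ± 0.13 and -0.13 ± 0.15 (adjusted p = 0.64 and 0.561). Between 30-72 h and 4-8 h the probe sets parted: X71127_g_at was higher at 30-72 h by 0.48 ± 0.12 (adjusted p = 0.00201), and X71127_at, at 0.21 ± 0.11, did not pass (adjusted p = 0.119). Over all times 2 of 3 tested members passed the F test, Clec4f (adjusted p = 0.00246) and C1qb by X71127_g_at (adjusted p = 0.019), against 33.6% of all probe sets, and C1qb by X71127_at did not (adjusted p = 0.259). The X71127_g_at call was lost without 48 h replicate 1 (adjusted p = 0.0769). The fourth short-course member, Csf1r, fell under the brightness filter of 91.2 with a mean signal of 73.2, and with no filter its 4-8 h change was -0.31 (adjusted p = 0.363).

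The times that both courses sampled are set side by side without a test, since the designs and scalings differ. For Clec4f the change was -1.72 ± 0.45 in the short course and -0.30 ± 0.18 in the long one at 6 h, 0.39 ± 0.45 and -1.13 ± 0.18 at 48 h, and 0.52 ± 0.51 and -1.41 ± 0.18 at 72 h. At 18 h the level was 84.1% of control in the short course and 49.9% in the long one. The short-course values at 18, 48 and 72 h did not pass and the long-course values did, and at 48 and 72 h the signs were opposite. For C1qb at 48 h the short-course changes of 0.48 and 0.65 stand beside -0.66 ± 0.21 in the long course (adjusted p = 0.0641), none of which passed.

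**Figure D5:**
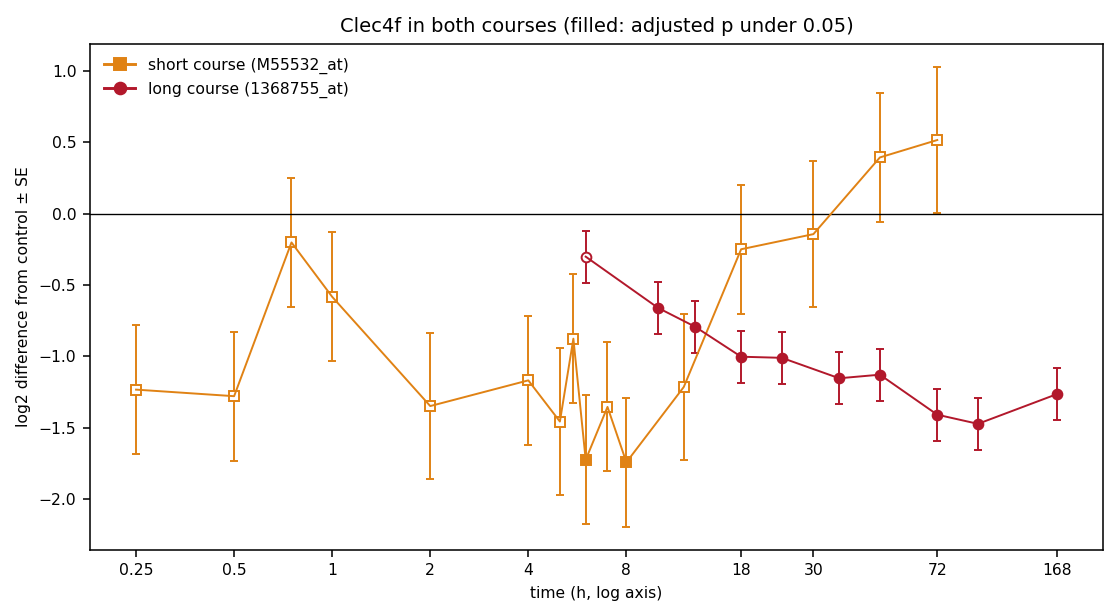
Change of Clec4f, as log2 of signal plus 32 minus the control mean of the same course, with its SE, at each time of both courses (h, log axis). Filled points had an adjusted p under 0.05. The short-course values are lowest, at -1.72 and -1.74, at 6 and 8 h and reach 0.52 at 72 h, where the long-course value is -1.41.

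The members' time courses were alike to differing degrees. Pearson's r was taken over the 11 long-course group means, which come from the same 44 arrays. For Clec4f it was 0.85 with Fcer1g, 0.76 with Cd68, 0.57 with C1qa, 0.48 with C1qb and 0.44 with Csf1r. Among the other members it ran from 0.65, between Cd68 and Csf1r, to 0.92, between Cd68 and Fcer1g and between C1qb and C1qa. Between Cd68 and the C1q genes it was 0.90 for C1qa and 0.87 for C1qb. The genes most like Clec4f were Cd74, the invariant chain of MHC class II (r = 0.97), RT1-Ba, a class II chain (r = 0.97), and Fcna, a ficolin (r = 0.96). Those most like Cd68 were Plac8 (r = 0.96), Cyba, a subunit of the phagocyte oxidase (r = 0.95), and Rac2 (r = 0.95). Those most like Fcer1g were Crip1 (r = 0.97), the chemokine Ccl6 (r = 0.96) and Lcp1, a leukocyte actin-bundling protein (r = 0.95). C1qa was most like Clec4a3 (r = 0.95), and Csf1r most like Tgoln2 (r = 0.92), Lrg1 (r = 0.89) and Timp1 (r = 0.89). In the short course, over 17 group means, Clec4f was most like the fatty acid elongase gene Elovl5 (r = 0.93), Cyp1a2 (r = 0.93) and Pros1 (r = 0.92), and C1qb like C1qc (r = 0.88).

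Other macrophage markers were counted beside the members. Of 13 macrophage markers tested in the long course, 5, 5 and 6 were called lower and 0, 1 and 1 higher at 6-18 h, 24-48 h and 72-168 h, with median changes of -0.39, -0.42 and -0.42. Among all probe sets 4.64%, 2.61% and 4.81% were called higher in these windows. Cd74 had changes of -0.81, -1.58 and -1.70 in the 3 windows (adjusted p = 0.0126, 7.3e-06 and 7.72e-07) and Id3, a transcription factor of Kupffer cells in mice, of -0.36, -0.64 and -0.74 (adjusted p = 0.101, 0.0036 and 0.000289). Mpeg1, the pore-forming perforin-2 of macrophages, was the one called higher, with -0.02, 0.62 and 0.57 (adjusted p = 0.951, 0.0102 and 0.0109). The summed signal of the 14 markers on the design ranged from 3507 to 5957 at 6-18 h, from 5073 to 6207 at 24-48 h and from 3898 to 7743 at 72-168 h, against 6168 to 7161 in controls. In the short course, of 9 tested, 2 were called lower and 2 higher at 4-8 h. Cd14, a lipopolysaccharide co-receptor, rose by 2.01 (adjusted p = 2.74e-05) and the lysozyme gene Lyz2 by 0.88 (adjusted p = 0.0234), while Id3 fell, with a change of -1.07 (adjusted p = 0.00181) and Ctsc, a cathepsin gene, with -0.68 (adjusted p = 0.000318).

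The partners of the members were read in the same long-course windows. Of 11 other genes of the classical complement pathway, 3, 3 and 5 were called lower and 0 higher in every window, with median changes of -0.39, -0.34 and -0.32. C1qc, the third C1q chain, had changes of -0.48, -0.69 and -0.50 (adjusted p = 0.0463, 0.00644 and 0.0395), and C9, a hepatocyte product of the membrane attack complex, of -0.90, -0.72 and -1.12 (adjusted p = 0.00414, 0.0418 and 0.000344). Of 10 genes of Fc receptors and their signalling, 3, 3 and 1 were called lower, with median changes of -0.28, -0.35 and -0.23. Fcgr3a, a receptor that signals through the Fcer1g chain, had changes of -0.39, -0.64 and -0.57 (adjusted p = 0.0354, 0.00101 and 0.00162), and the kinase gene Fgr of -0.55, -0.62 and -0.26 (adjusted p = 0.0081, 0.00534 and 0.285). Of 8 genes of the colony-stimulating factor axis and its transcription factors, none was called lower and Cebpb was called higher at 72-168 h (0.97, adjusted p = 0.0448), with median changes of -0.17, -0.02 and -0.19.

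Of 15 genes of the macrophage lysosome, where the Cd68 protein lies, 7, 5 and 5 were called lower and none higher, with median changes of -0.28, -0.17 and -0.27. The asparaginyl protease gene Lgmn had changes of -0.87, -1.10 and -1.20 (adjusted p = 0.000742, 6.26e-05 and 6.53e-06) and the acid lipase gene Lipa of -0.74, -0.71 and -0.66 (adjusted p = 0.00011, 0.000355 and 0.000375). Of 9 scavenger receptors and lectins, 1, 2 and 1 were called lower, with median changes of -0.22, -0.32 and -0.27, among them the galectin gene Lgals3, at -0.45, -1.12 and -0.92 (adjusted p = 0.219, 0.00115 and 0.00428). Of 9 genes of haem and iron handling, 1, 1 and 2 were called lower and 1, 1 and 1 higher, with median changes of -0.11, 0.00 and 0.02. The iron exporter gene Slc40a1 had changes of -0.72, -0.45 and -0.60 (adjusted p = 0.000272, 0.0428 and 0.00224) and the transferrin receptor gene Tfrc of 0.66, 0.70 and 0.51 (adjusted p = 0.00699, 0.0088 and 0.0461). Of 9 genes listed as glucocorticoid-responsive in macrophages, 2, 1 and 2 were called lower and 2, 3 and 3 higher, with median changes of 0.07, -0.11 and 0.00. The glucocorticoid targets Fkbp5 and Tsc22d3 rose in all 3 windows, by 1.73, 1.32 and 2.03 (adjusted p = 1.6e-05, 0.0011 and 6.29e-07) and by 1.32, 1.44 and 1.68 (adjusted p = 1.48e-05, 4.99e-06 and 9.67e-08).

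Markers of other cell types were counted beside the members in the long course. Of 3 dendritic cell markers, 1, 2 and 2 were called lower in the 3 windows, with median changes of -0.65, -1.18 and -1.33, namely the class II chains RT1-Da (-0.65, -1.43 and -1.67, adjusted p = 0.0822, 0.000185 and 6.99e-06) and RT1-Ba (-0.73, -1.18 and -1.33, adjusted p = 0.0133, 0.000167 and 1.14e-05), which macrophages and B cells also make. Of 5 monocyte markers, 1, 1 and 2 were called lower, with median changes of -0.35, -0.33 and -0.29 and Plac8 at -0.63, -0.89 and -0.72 (adjusted p = 0.0093, 0.00055 and 0.00243). Of 3 bile duct markers, 2, 2 and 2 were called lower, with median changes of -0.36, -0.48 and -0.67 and Krt8, a keratin that hepatocytes also make, at -0.55, -0.48 and -0.80 (adjusted p = 0.00896, 0.0429 and 0.000141). Of 11 stellate cell markers, 0, 2 and 3 were called lower and 0, 0 and 1 higher, with median changes of -0.18, -0.29 and -0.37. Of 7 endothelial markers 0 were called lower and 1, 0 and 0 higher, with median changes of -0.28, -0.23 and -0.14. None of the 11 hepatocyte, 3 neutrophil, 2 T and NK cell or 3 red cell markers tested was called in any window. Their median changes were -0.13, 0.19 and 0.25 for hepatocyte, 0.10, -0.21 and -0.04 for neutrophil, 0.06, 0.02 and -0.11 for T and NK cell and -0.61, -0.31 and 0.23 for red cell markers, and neither B cell marker on the design passed the brightness filter. The summed hepatocyte signal ranged from 64889.9 to 144339 at 6-18 h, from 79896 to 166649 at 24-48 h and from 67967 to 164691 at 72-168 h, against 84330.1 to 146715 in controls. The summed dendritic signal ranged from 384 to 1084, from 241 to 551 and from 193 to 719 in these windows, against 739.9 to 1102 in controls. No marker of any of these cell types was listed at 0 on any array. The lowest signal on this design was 6.44 or less in every list except the hepatocyte one. The part of other cell types and of RNA integrity in the members' changes was not tested.

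The same lists gave other counts at 4-8 h of the short course. For 4 of 5 neutrophil markers a higher call was made, and glucocorticoid-responsive genes were called higher in 6 of 6 cases. The controls were far apart in neutrophil signal. The summed signal of the 6 neutrophil markers on the design ranged from 12104 to 21541 at 4-8 h, inside the control range of 1254 to 25835. Called lower and higher, with the median change of the list, were 0 and 4 of 5 neutrophil (median 1.35), 0 and 0 of 3 monocyte (median 0.58), 0 and 0 of 3 dendritic cell (median 0.05) and 0 and 1 of 5 T and NK cell (median 0.05) markers. Of B cell and structural cell types they were 0 and 0 of 2 B cell (median -0.23), 1 and 2 of 6 endothelial (median 0.32), 0 and 2 of 8 stellate (median 0.00), 1 and 0 of 6 bile duct (median 0.00), 2 and 0 of 11 hepatocyte (median -0.34) and 0 and 0 of 4 red cell (median 0.04) markers. Of the pathway lists they were 0 and 0 of 9 complement (median -0.15), 0 and 1 of 9 Fc receptor (median 0.19), 0 and 3 of 8 colony-stimulating factor (median 0.34) and 3 and 2 of 7 haem and iron (median -0.27) genes. The remaining lists gave 1 and 3 of 8 scavenger and lectin (median 0.45), 3 and 1 of 10 lysosomal (median -0.13) and 0 and 6 of 6 glucocorticoid-responsive (median 1.11) genes. Among all probe sets 10.5% were called lower and 16.4% higher there, and the median change of all was 0.10.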

How the data were processed

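The deposited tables hold linear intensities of Affymetrix probe sets, scaled by the authors so that each array of a course has about the same trimmed mean; the algorithm is not given in the sources used here. Gene symbols came from the platform annotation; 7018 of 8799 probe sets of the short and 12789 of 15923 of the long course carried 1 symbol. Arrays were grouped by title. Affymetrix control probe sets and those under the 30th percentile of mean signal were left out, 32 was added, and log2 values were fitted per course with limma 3.58.1 in R 4.3.3 (group means, eBayes with trend), with contrasts of times, windows and late minus early. Python 3.11.15 read the promoters and drew the plots. On simulated data with 200 changed probe sets, the 24-48 h contrast of the long course recovered 90.5% at a change of 1 and 25.5% at 0.5, and the 4-8 h contrast of the short course 73% and 22%. How many arrays each group holds limits the precision.

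The members, the 18 gene lists and the windows were chosen with earlier results of these data known. Named were all members, from each list at most 4 genes of lowest F test p (else of highest signal), and the 3 genes most correlated with a member over group means. Alternatives changed the added constant, filter, scaling, array weights, trend, spike-in class and single arrays; the 168 h minus 72 h contrast and the fit without 168 h arrays were chosen after the data were seen. Same-numbered arrays of different groups had a mean correlation of deviations of 0.0525 in the long and -0.00614 in the short course. For arrays of other numbers it was -0.0165 and 0.00364. Single same-numbered pairs reached 0.469 in the long and 0.770 in the short course, so these means do not exclude a link. Numbers were not taken as pairs in the main fits. In the long course the number is tied to the spike-in class, however: all 11 replicate 4 arrays were of high class, against 4 of the other 33.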

Additional observations from a re-analysis of the deposited data

Results flagged for a closer look

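Of the 70 groups of 4 arrays examined, 6 held 1 array far from the others, where chance gives about 1 in 20. Clec4f read 240 on 96 h replicate 3 of the long course (the others 192 to 197), and 522 on control replicate 2 (the others 658 to 674). Cd68 read 198 on 13 h replicate 4 (the others 104 to 116) and 179 on 6 h replicate 4 (the others 143 to 146). Csf1r read 200 on 18 h replicate 4 (the others 121 to 131), and Fcer1g 200 on 72 h replicate 4 (the others 260 to 273). All 11 replicate 4 arrays of the long course were of high spike-in signal, so these 4 could not differ from other replicate 4 arrays in it. Of the other far arrays, 96 h replicate 3 was of high class and control replicate 2 of low class.

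Late and early windows differed in a direct test for Clec4f in both courses and for C1qb in the short one. Clec4f was higher at 30-72 h than at 4-8 h of the short course by 1.64 (adjusted p = 1.29e-05) and lower at 72-168 h than at 6-18 h of the long course (-0.69, adjusted p = 1.8e-06). C1qb by X71127_g_at was higher at 30-72 h than at 4-8 h by 0.48 (adjusted p = 0.00201).

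At times that both courses sampled, some log2 changes ran in opposite directions on every array. At 72 h Clec4f was at 0.52 in the short course and at -1.41 in the long one. C1qb at 48 h was at 0.48 (X71127_at) and 0.65 (X71127_g_at) in the short course and at -0.66 in the long one. At 72 h these values were 0.29, 0.18 and -0.55. The differences between courses were not tested, since designs and scalings differ.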

How the results depend on the processing

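Of 1995 member values under other settings, 1948 kept their side of the threshold, and of 7467 with 1 array left out 7344 did. No called value turned its direction, and 100 uncalled values changed sign. The counts of members past the threshold moved as follows, under the settings named. In the short course the count over all times was 1 in place of 2 without the low-correlation arrays and with 6 h replicate 3 on its own scale, and the 4-8 h count 0 in place of 1 without the low-correlation arrays. In the long course the 72-168 h count was 5 in place of 3 with the 168 h arrays left out. The long-course count over all times, 6, was 4 with the 168 h arrays left out, under quantile normalization and on low spike-in arrays, and 5 with no filter and under median centring. The 24-48 h count, 5, was 4 with no filter, under quantile normalization and under median centring. The cause was not tested. With 1 array left out, where a group of 2 keeps a lone array assumed to vary like the other groups, the short-course counts ran from 1 to 2 over all times (1 without 48 h replicate 1), stayed at 1 for 4-8 h and at 0 for the other windows, and the long-course counts ran from 3 to 6 over all times (3 without 168 h replicate 3), from 2 to 3 at 6-18 h, from 3 to 5 at 24-48 h (3 without control replicate 1 or 2) and stayed at 3 for 72-168 h. With the replicate block all counts were as before, 2, 0, 0, 1, 0 and 0 in the short and 6, 3, 5 and 3 in the long course.

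Some long-course calls of C1qa and C1qb were lost under other settings. C1qa over all times had an adjusted p of 0.0513 with no filter, 0.0803 under quantile normalization, 0.0571 under median centring and 0.0922 on low spike-in arrays, and C1qb 0.0944 on the last. In the long course 18 of 44 arrays, and in the short 7 of 47, correlated best with arrays of their own replicate number.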
